A study of Mus musculus with 18 samples.

Results

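The clustered histone genes are the replication-dependent genes for the linker histone H1 and the core histones H2A, H2B, H3 and H4. They were taken as every protein-coding row of the deposited table whose gene name starts with Hist1h, Hist2h, Hist3h or Hist4h, summed by name. The rule found 68 genes (74 transcripts) among 22305 protein-coding gene names and 38046 gene names in all. By class there were 6 H1, 19 H2a, 18 H2b, 12 H3 and 13 H4 genes. By cluster, 55 were Hist1, 10 Hist2, 2 Hist3 and 1 Hist4. In mouse assembly GRCm38 these clusters lie on chromosomes 13, 3, 11 and 6. Another 4 rows carried such names under a noncoding biotype and were not members.

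RNA was sequenced from 18 libraries of mouse oligodendrocyte progenitor cells (OPCs), the dividing precursors of the cells that make myelin. The OPCs were clonal lines derived from primary neural stem cells. The control lines were 3 clones named D7, D3 and E8. The lines null for Thap1 were another 3, named 3F, D6 and 7F. Thap1 encodes a zinc-finger transcription factor. Each clone was sampled once as OPCs in growth medium with the mitogen PDGF-AA (day 0) and after 2 and 4 days of differentiation with thyroid hormone T3 (DIV2 and DIV4). Every clone thus gave 1 library a stage, 3 per group. The sources used here do not say by what method Thap1 was inactivated, or whether the clones of a genotype came from separate animals. The libraries were prepared from total RNA with ribosomal RNA removal, without selection for a poly(A) tail.

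Most replication-dependent histone mRNAs end in a conserved stem-loop and carry no poly(A) tail, so libraries selected for poly(A) tails largely miss them. The stem-loop-binding protein SLBP holds this end during processing, export, translation and decay. Cells make these mRNAs mainly in S phase, to package newly copied DNA, and degrade them when replication stops. Some clustered genes can also give longer, polyadenylated transcripts, a form described in differentiated cells.

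The stem-loop was searched for in the GENCODE M21 transcript sequences as a 6-bp stem opening with GG and a 4-base loop opening with TT. It was found in 42 of the 66 members with a sequence, against 0.594% of all 21901 protein-coding genes. By class it was present in 4 of 6 H1, 11 of 19 H2a, 8 of 18 H2b, 8 of 10 H3 and 11 of 13 H4 genes. A member without a match may have a gene model that stops before the stem-loop. The following genes are shown because they are abundant or give the results below; capitals mark the stem-loop, 5′ to 3′.
Hist1h1e: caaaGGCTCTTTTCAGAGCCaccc
Hist1h1d: aaacGGCTCTTTTCAGAGCCaccc
Hist1h2ae: caaaGGCTCTTTTCAGAGCCattc
Hist1h2bk: caaaGGCTCTTTTAAGAGCCacta
Hist1h3e: aaacGGCTCTTTTAAGAGCCacct
Hist1h4d: caaaGGCCCTTTTCAGGGCCacta
Hist1h4i: taaaGGCCCTTTTTAGGGCCacca
Hist1h4j: taaaGGTCCTTTTCAGGACCacca
Every H1, H2a, H2b and H3 gene with a match had a stem that opened with GGCTCT and closed with AGAGCC, and they differed in the loop. The H4 genes had other stems. In 7 of them the word was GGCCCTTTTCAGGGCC, in 2 it was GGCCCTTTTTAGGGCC and in 2 it was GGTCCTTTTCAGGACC.

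Promoters were available from RefSeq (GRCm38.p6) for 58 members, as 59 windows of 300 bases, from 250 bases before to 50 after the start. Each motif was searched as written and on the other strand. CCAAT, the box bound by NF-Y, was present in 84.7% of member windows against 37.4% of the 32851 windows in the table. It was present in 100% of H1, H2a, H2b and H3 windows and in 3 of 12 H4 windows. TATAAA was present in 57.6% against 13.6%. The octamer ATTTGCAT, the word of OCT1 sites, was present in 7 of 16 H2a and 6 of 15 H2b windows and in none of the other classes, against 1.74% of all windows. The H1 box AAACACA was present in 5 of 6 H1 windows against 7.18%. TNNGGGCA, a core word reported for THAP1 binding, was present in 8 of 59 member windows (13.6%) and in 13.9% of all windows. The 250 bases before the start are shown for 1 gene of each promoter type, on the strand of the gene, with capitals for the first 4 of these motifs in either orientation. The windows are chr13:21780626-21780875 (minus strand), chr13:23571150-23571399, chr13:23752095-23752344 and chr13:23581318-23581567 (plus strand).
Hist1h1b: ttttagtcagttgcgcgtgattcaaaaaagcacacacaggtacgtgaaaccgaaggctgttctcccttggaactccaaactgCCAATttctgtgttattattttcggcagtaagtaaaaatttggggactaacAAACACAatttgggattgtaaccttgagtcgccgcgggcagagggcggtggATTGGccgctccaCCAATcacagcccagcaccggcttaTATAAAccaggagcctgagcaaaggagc
Hist1h2bg: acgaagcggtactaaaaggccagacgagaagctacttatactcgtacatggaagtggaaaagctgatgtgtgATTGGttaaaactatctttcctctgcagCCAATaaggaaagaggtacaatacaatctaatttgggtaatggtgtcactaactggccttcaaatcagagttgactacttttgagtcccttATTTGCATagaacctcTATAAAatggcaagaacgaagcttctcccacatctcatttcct
Hist1h3b: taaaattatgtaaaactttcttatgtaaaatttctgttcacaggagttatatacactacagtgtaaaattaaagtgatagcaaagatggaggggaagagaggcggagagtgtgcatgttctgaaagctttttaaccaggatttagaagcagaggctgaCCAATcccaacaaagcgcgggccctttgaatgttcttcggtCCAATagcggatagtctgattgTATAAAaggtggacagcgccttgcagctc
Hist1h4d: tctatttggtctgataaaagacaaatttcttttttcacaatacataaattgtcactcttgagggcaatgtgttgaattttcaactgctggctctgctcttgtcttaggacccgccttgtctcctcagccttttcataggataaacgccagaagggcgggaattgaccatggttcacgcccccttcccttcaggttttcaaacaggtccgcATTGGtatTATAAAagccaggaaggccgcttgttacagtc
The Hist1h1b sequence holds the H1 box upstream of a CCAAT and a TATAAA box. The Hist1h2bg sequence covers the stretch up to the divergent Hist1h2ae, whose start lies 175 bases away, and reaches into that gene. Among the members there were 14 such H2a-H2b pairs by gene name, whose start sites lay 175 to 305 bases apart. They held 12 H2a genes. Hist1h2ao was paired with Hist1h2bh and Hist1h2bq, and Hist1h2ap with Hist1h2bm and Hist1h2br. Each of these H2b couples shares a gene ID in GENCODE M21.

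Levels are given as rescaled TPM. TPM divides reads by transcript length and makes every library add up to the same sum. In the control OPC libraries 3 noncoding features took 64.8% to 87.98% of that sum, against 0.789% to 34.8% in null OPC and at most 3.17% at DIV2 and DIV4. The deposited values were therefore divided by a factor per library, the median ratio over 12320 protein-coding genes above 0 in all 18 libraries. Differences are on the log2(rescaled TPM + 1) scale from limma, with Benjamini-Hochberg adjustment over 10656 protein-coding genes whose deposited TPM averaged 1 or more. A gene was called at an adjusted p under 0.05. Of the 68 members 64 were tested. The 4 others, Hist1h1t, Hist1h2aa, Hist1h2ba and Hist1h4m, were below 1 rescaled TPM in all 18 libraries. Hist1h1t, Hist1h2aa and Hist1h2ba encode germline histones. TPM keeps no read depth, so no counting error can be given. The p-values rest on the spread between these clonal lines, pooled over all stages, with the stages of a clone treated as independent.

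Thap1 itself was lower in the null clones at every stage. In OPCs it was at 4.38, 4.30 and 3.32 rescaled TPM in control clones D7, D3 and E8 and at 0.482 to 0.772 in the null clones (log2 difference −1.63, SE 0.18, adjusted p = 0.000119, limma). At DIV2 and DIV4 the differences were −1.13 and −1.44, and both were called. Oligodendrocyte precursor markers (Pdgfra, Cspg4, Ptprz1 and Vcan) summed to 129 to 214 rescaled TPM in the 6 OPC libraries. Only Cspg4 of these was called between genotypes in OPCs, lower in null. It was at 26.7, 11.6 and 23.3 in D7, D3 and E8 and at 11.5, 6.19 and 4.52 in 3F, D6 and 7F. Oligodendrocyte markers (Mag, Mog, Cnp, Ugt8a and Myrf) summed to 42.0 to 279 in OPC libraries and 854 to 1708 at DIV2. Microglial markers summed to at most 4.53 and mesenchymal markers to at most 1.03 in any library. Neuron markers summed to 6.01 to 22.7 in OPC libraries, 35.1 to 55.9 at DIV2 and 36.9 to 90.6 at DIV4. Most of that was Tubb3, the only one tested, which rose from OPC to DIV2 in both genotypes (1.69 and 2.45). At DIV4 control clone D7 stood apart. Its oligodendrocyte markers summed to 2248 against 436 to 695 in the 5 other libraries. Its precursor markers summed to 15.1, against 89.4 and 90.5 in control D3 and E8 and 28.3 to 43.7 in the null clones, and its astrocyte markers to 1.46 against 85.9 to 273. From DIV2 to DIV4 the oligodendrocyte sum rose only in D7, from 1708. It fell in D3 and E8, from 854 and 1268 to 462 and 436. In the null clones the range was 963 to 1101 at DIV2 and 500 to 695 at DIV4. Precursor markers were at 17.4 to 40.9 at DIV2. Astrocyte markers were at most 11.3 in OPC libraries and at most 26.2 at DIV2.

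Histone RNA was high in OPCs and lower at DIV2 in every clone of both genotypes. The 68 genes together were at 17899, 4732 and 10999 rescaled TPM in control OPC clones D7, D3 and E8, and at 12346, 14089 and 11706 in null OPC clones 3F, D6 and 7F. At DIV2 they were at 1084, 1167 and 936 in the control clones and at 1036, 1395 and 1010 in the null clones. The OPC and DIV2 ranges did not overlap in either genotype. The OPC level was 16.5, 4.06 and 11.8 times the DIV2 level in D7, D3 and E8, and 11.9, 10.1 and 11.6 times in 3F, D6 and 7F. Histone RNA made up 1.70% to 6.13% of protein-coding TPM in control OPCs and 4.69% to 5.92% in null OPCs, and 0.458% to 0.653% across both genotypes at DIV2. In bulk RNA, fewer cells in S phase and less histone RNA per cell cannot be told apart.

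**Figure D1:**
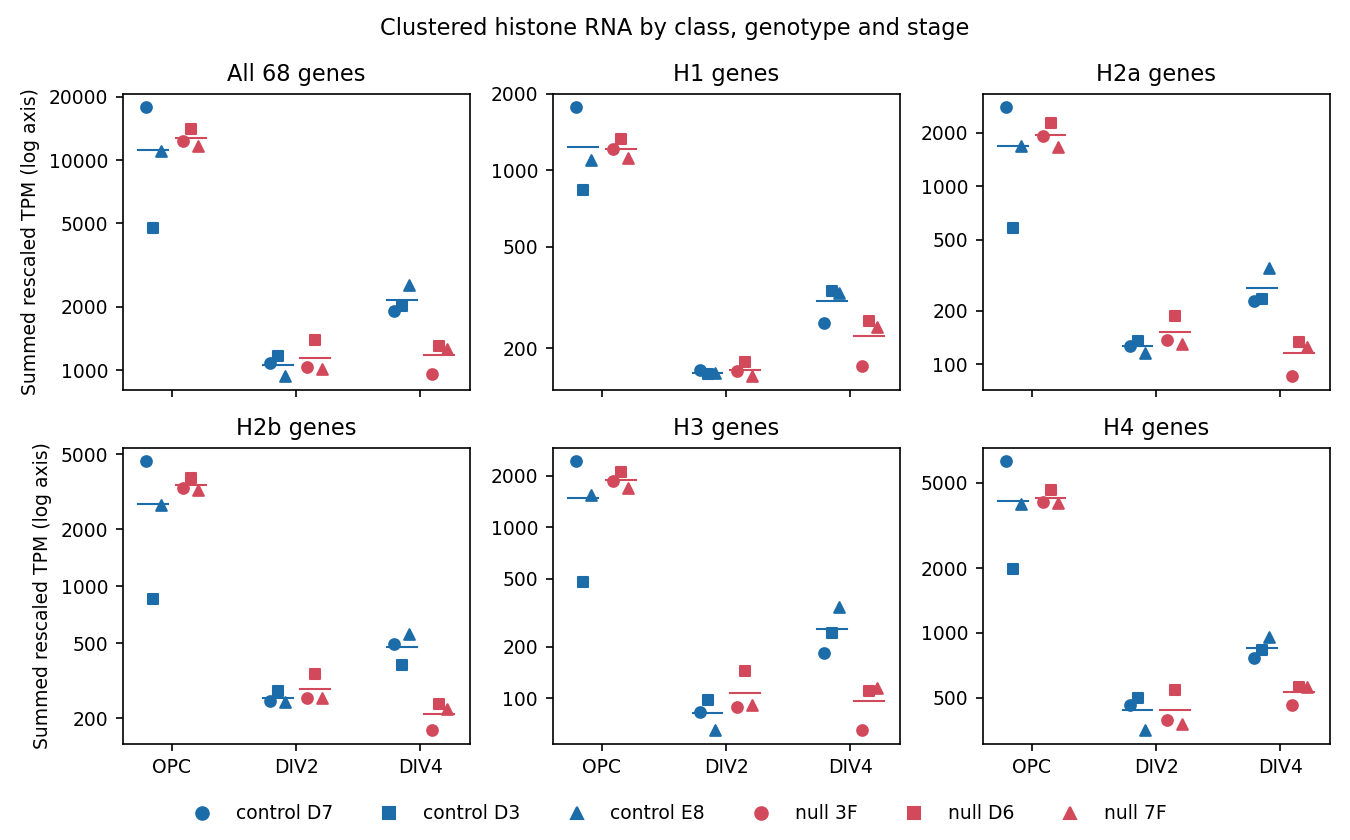
Summed rescaled TPM (log axis) of all 68 genes and of each class, by stage, with 1 point per library, marker shape for the clone, blue for control, red for null and a line for the mean of 3 clones. The genotypes overlap at OPC and DIV2, and at DIV4 the 3 control libraries lie above the 3 null libraries in every panel but H1.

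Clone D3 had the lowest OPC level in each class. In the same library the 21 listed S phase genes, such as Mcm2 to Mcm7 and Pcna, summed to 72.7 rescaled TPM. They summed to 471 and 485 in the other control OPC clones and 337 to 471 in the null ones. The part of this in the histone levels was not tested.

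Between OPC and DIV2, 57 of 64 tested members fell and 2 rose in the control clones, where 18.2% of all tested genes fell and 21% rose. In the null clones 59 fell and 1 rose, where 15.3% of all genes fell and 17.5% rose. The median change of the members was −3.36 in control and −3.75 in null on the log2 scale, against 0.04 and 0.02 for all genes. Class medians in the null clones ran from −3.26 for H4 and −3.62 for H1 to −3.82 for H2b, −3.96 for H2a and −4.03 for H3. No member passed the test of a difference between genotypes in this change, and 3 had an unadjusted p under 0.05 (limma; 0.235% of all genes passed, and 6.91% had an unadjusted p under 0.05 in the direction of these 3). On the deposited scale, where the median of all genes moved by 1.99 in the control clones, 28 members fell and 9 rose there. Without the E8 OPC library 59 members fell and 0 rose in control (limma). For either of these fits the share of all genes called is not given here.

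Most of the abundant core histone genes fell steeply. Hist1h4d, the most abundant H4 gene, went from 1362, 419 and 977 rescaled TPM in the control OPC clones D7, D3 and E8 to 98.9, 98.9 and 71.3 at DIV2. In null clones 3F, D6 and 7F it went from 993, 1064 and 962 to 82.1, 118 and 92.6. No DIV2 library reached an OPC library. Hist1h4h, also H4, changed by −2.62 in control (SE 0.26) and −2.81 in null (SE 0.26). Hist1h2bk, an H2B gene, went from 847, 132 and 610 to 31.003, 34.3 and 30.8 in the control clones and from 630, 605 and 551 to 30.8, 45.2 and 34.7 in the null clones. The H3 genes Hist1h3i and Hist1h3h changed by −3.96 and −3.62 in control and by −3.78 and −3.49 in null, each with an SE under 0.4. The H2A gene Hist1h2ao changed by −5.08 (SE 0.69) and −4.18 (SE 0.69). All of these were called in both genotypes. Hist2h2bb, the second most abundant H2B gene, was not called, at −0.39 in control (SE 1.51, limma adjusted p = 0.86) and −3.74 in null (SE 1.51, adjusted p = 0.0694). In control it went from 902, 134 and 0.00806 in D7, D3 and E8 to 47.9, 33.7 and 30.9, so D7 and D3 were lower at DIV2 and E8 was higher. Without the E8 OPC library, a fit chosen after the data were seen, it changed by −3.21 in control (SE 0.52, adjusted p = 0.000536).

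The linker histone genes split. Hist1h1b, the gene for H1.5, changed by −5.20 in control and −4.94 in null (SE 0.58 each). Hist1h1a, the gene for H1.1, changed by −4.005 and −4.40 (SE 0.48). Hist1h1e, the most abundant H1 gene, changed by −2.71 and −2.34 (SE 0.17). Hist1h1c, the gene for H1.2, was at 140, 145 and 85.2 rescaled TPM in control OPC clones D7, D3 and E8, and at 51.5, 52.5 and 58.9 at DIV2. Its change of −1.13 (SE 0.23, limma adjusted p = 0.00137) in control and −1.68 (SE 0.23, adjusted p = 9.87e-05) in null was the smallest of the 5 tested H1 genes. The H1 share of histone RNA was accordingly higher at DIV2 than in OPCs, at 12.7% to 17.0% against 9.38% to 9.97% in 5 of the 6 OPC libraries. In D3 OPCs it was 17.7%.

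A few members did not fall. Hist2h2be, an H2B gene of the Hist2 cluster with no stem-loop match and an AATAAA polyadenylation signal in the last 60 bases of its model, rose from 0.713, 1.53 and 0.880 rescaled TPM to 1.65, 2.58 and 1.80 in control clones D7, D3 and E8. In null clones 3F, D6 and 7F it rose from 0.427, 0.514 and 0.634 to 1.03, 1.20 and 1.36. Its log2 changes of 0.57 in control (SE 0.18, limma adjusted p = 0.0192) and 0.53 in null (SE 0.18, adjusted p = 0.0321) were both called in the fit of all libraries. Every clone was higher at DIV2. Without the E8 OPC library the control change was 0.52 (SE 0.20, limma adjusted p = 0.0564) and was not called. Hist1h2bc, an H2B gene whose model also lacked a match, was at 137, 72.6 and 100.3 in control OPCs and at 62.8, 88.2 and 97.8 at DIV2, and these ranges overlapped (−0.29, SE 0.24, adjusted p = 0.37). In null clones it fell by 0.75 (SE 0.24, adjusted p = 0.0271). Its divergent H2A partner Hist1h2ac was at 2.34 to 7.91 in control OPCs and 0.743 to 1.75 at DIV2 and fell in both genotypes. Hist1h2bq and Hist2h3c1, both under 3 rescaled TPM in OPCs, were not called in either genotype. These 5 genes were picked once their values were known.

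Hist2h2aa1 and Hist2h2aa2, H2A genes of the Hist2 cluster, have near-identical sequences, and their values differed in opposite directions between OPC and DIV2. Hist2h2aa2 was at 375 to 450 rescaled TPM in null OPCs and at 7.72 or below at DIV2. Hist2h2aa1 was at 4.57 to 10.8 in null OPCs and at 35.1 to 39.7 at DIV2 (2.10, limma adjusted p = 0.0836). Their sum was 454, 459 and 386 in null OPC clones 3F, D6 and 7F and 36.8, 47.4 and 35.1 at DIV2. In control the sum went from 673, 208 and 0.0118 in D7, D3 and E8 to 37.6, 46.5 and 36.5, so E8 went the other way. Hist2h2aa1 was 1 of the 2 members called higher in control (2.49, SE 0.89, limma adjusted p = 0.0374), and without the E8 OPC library it was not called (1.06, SE 0.59, adjusted p = 0.186). The split between the copies depends on how reads were assigned. Each shared at least 89.7% of its 31-base words with other transcripts. Across the members 59 of 66 shared at least 10% of these words, so single values can mix near-identical genes. In class sums a split between models of equal length cancels. A split between models of unlike length does not, since TPM divides by length. Hist1h2bm and the main model of Hist1h2br, which share a gene ID, have deposited lengths of 381 and 1256. Class sums and shares can also depend on reads shared with transcripts outside the members. Hist3h2a shared 32.1% of its words in all and 3.31% with members, and Hist4h4 11.5% and 0.075%. The 7 with less sharing were Hist1h1a, Hist1h1b, Hist1h1d, Hist1h1t, Hist2h2bb, Hist2h2be and Hist2h4.

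Transcripts with long models had smaller changes. Over all clones, for models of at least 1000 in deposited length (15 transcripts), the median log2 change from OPC to DIV2 was −2.46, and for 50 shorter ones it was −3.78, all with a mean of at least 1. This split was chosen after the values were seen and is a description. As ratios of the null means with no pseudocount, the medians were −3.29 and −4.17. The long models also had the lower level in null OPCs, a median of 57.8 against 169 rescaled TPM, and the part of this was not tested. Hist3h2a, with a deposited length of 1990, changed by −0.61 in control and −1.23 in null.

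**Figure D2:**
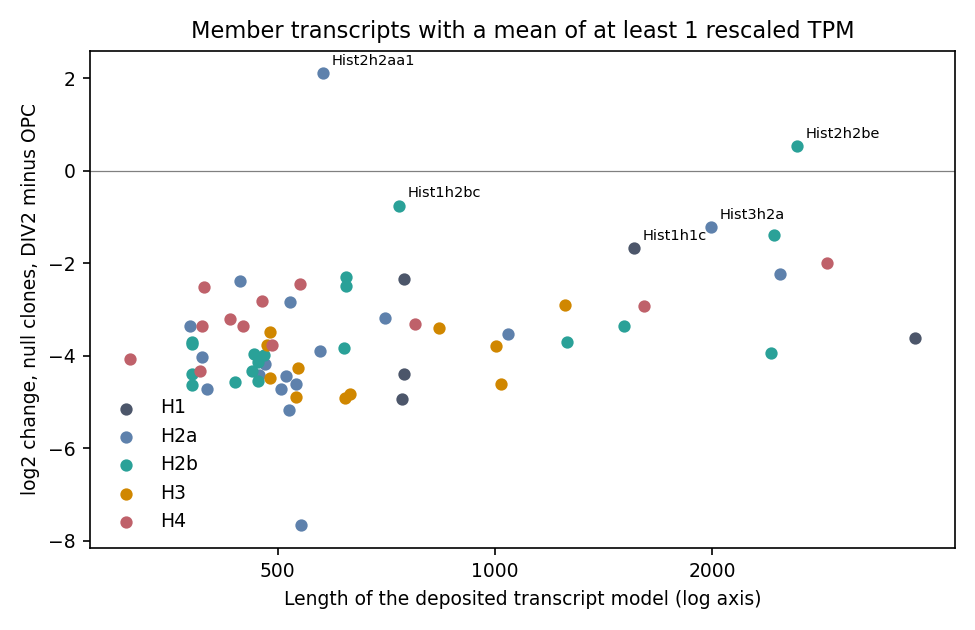
Log2 change from OPC to DIV2 in the 3 null clones (vertical axis) against the length of the deposited transcript model (horizontal log axis), for member transcripts with a mean of at least 1 rescaled TPM, coloured by class. Hist2h2aa1 and Hist2h2be lie above 0, and all other transcripts shown lie below it.

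Between genotypes in OPCs, histone RNA did not differ beyond the spread of the clones. The mean sum was 11210 ± 6586 (SD, n = 3) in control and 12714 ± 1233 in null, a log2 ratio of 0.18. With 1 clone left out this ratio ran from −0.18, without control D3, to 0.69, without control D7. The ranges overlapped for the total and for each of the 5 classes. Of 64 members 2 were higher in null and 0 lower, where 5.83% of all genes were higher and 5.8% lower. Unadjusted p was under 0.05 for 12 members higher and 2 lower, against 15.7% and 13.3% of all genes. Without scaling, on the deposited TPM, 60 members were called higher in null, and the median of all genes was then also higher, by 1.49 on the log2 scale. With scaling to the protein-coding total 17 were called, with an all-gene median of 0.36. The shares of all genes called on these scales are not given here.

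The OPC calls were 2 genes outside the Hist1 and Hist2 clusters. Hist4h4, a lone H4 gene on chromosome 6 (GRCm38 chr6:136801553-136804415), was at 13.7, 7.87 and 6.89 rescaled TPM in control clones D7, D3 and E8 and at 25.9, 23.4 and 28.2 in null clones 3F, D6 and 7F. The 3 null values lay above the 3 control values (log2 difference 1.41, SE 0.20, limma adjusted p = 0.000843). At DIV2 Hist4h4 was at 2.84, 3.06 and 2.69 in control and 5.16, 7.56 and 4.66 in null, again without overlap (0.79, SE 0.20, adjusted p = 0.0418). At DIV4 the groups overlapped, at 4.13 to 5.19 and 5.003 to 5.84 (0.14, SE 0.20, adjusted p = 0.73). The fall from OPC to DIV2 did not differ by genotype in the interaction test (−0.61, SE 0.28, adjusted p = 0.356). Hist4h4 has a stem-loop with 2445 bases of model after it. Hist3h2a, an H2A gene on chromosome 11 (GRCm38 chr11:58954685-58956830), was at 79.3, 45.0 and 35.4 in control OPCs and 90.0, 84.6 and 95.0 in null OPCs (0.82, SE 0.22, adjusted p = 0.0273). Control D7 came closest to the null range. With any 1 of control D3, control E8 or a null clone left out, 1 member was called in OPCs, and without control D7 there were 21. How many of all genes were called in these fits is not given here.

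One control OPC library differed at the Hist2 cluster. In E8, Hist2h2aa1, Hist2h2aa2, Hist2h2bb and Hist2h3b were each below 0.01 rescaled TPM, while Hist2h2bb, an H2B gene, was at 902 and 134 in D7 and D3 and at 677 to 746 in null OPCs. Hist2h3b, an H3 gene, was at 208 and 33.5 in D7 and D3. In E8 the opposite-strand Gm20632, which overlaps Hist2h2aa1 (GRCm38 chr3:96239393-96241819), was at 77.0 against at most 0.919 in the 5 other OPC libraries. Gm20628, on the strand opposite Hist2h3b and Hist2h2bb (GRCm38 chr3:96267075-96270289), was at 95.1 against 15.1 to 75.4. How the authors' quantification treated strand is not given in the sources used here, and reads of a gene and its antisense partner may have been split differently in this library. The 4 genes were not called between genotypes in OPCs, with SEs of 0.89 to 1.64. Without this library 1 member was called, and the share of all genes called in that fit is not given here. E8 OPCs also differed at Hist1h2aj, an unprocessed pseudogene outside the members. It was at 74.7 in E8, 10.4 and 0.00796 in D7 and D3, and at most 6.57 in null OPCs.

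At DIV2 the genotypes also overlapped in all 5 class sums. The total was 1062 ± 117 in control and 1147 ± 215 in null (SD, n = 3). Hist4h4 was the only member called, and none was lower (1.94% of all genes were higher and 1.3% lower). Hist4h4 was not called at DIV2 on the deposited scale, with protein-coding scaling, without the filter on low genes, or with any of the clones but D7 left out.

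At DIV4 histone RNA was lower in the null clones. The 68 genes summed to 1916, 2025 and 2537 rescaled TPM in control clones D7, D3 and E8 and to 957, 1301 and 1266 in null clones 3F, D6 and 7F. Each control library lay above each null library. The log2 ratio of the means was −0.88, a control mean of 2159 ± 331 against a null mean of 1174 ± 189 (SD, n = 3). As a share of protein-coding TPM it was 0.863%, 1.20% and 1.34% in control and 0.537%, 0.732% and 0.714% in null, again apart. On the deposited TPM the groups overlapped, since control D7 was at 1797 and null D6 at 1937. The ratio was −1.40 for H3, −1.23 for H2a, −1.18 for H2b and −0.69 for H4, all without overlap. For H1 it was −0.46 with overlapping groups, 306 ± 47.4 in control and 223 ± 46.1 in null. Each direction held with any 1 clone left out.

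By gene, 16 of 64 members were called lower in null at DIV4 and 0 higher, where 2.37% of all genes were lower and 3.19% higher. The called genes were 3 of 5 tested H1, 4 of 18 H2a, 5 of 17 H2b, 2 of 12 H3 and 2 of 12 H4 genes. In 46 of 64 members (71.9%) every null clone lay below every control clone, against 13.6% of all genes. An unadjusted p under 0.05 was found for 41, against 10.4%. The fitted difference was negative for 62 of 64, and its median was −1.13 against −0.01 over all genes. The 2 exceptions were Hist4h4 and Hist2h2be, at 0.14 and 0.01. The number of calls depended on single libraries. It was 0 without null 3F or null 7F, 1 without control E8, 5 without null D6, 24 without control D7 and 33 without control D3. For these fits the share of all genes called is not given here. The spread was estimated over all stages. With only the 12 libraries of DIV2 and DIV4, 36 members were called lower (3.97% of all genes), and without the D3 OPC library 40 (3.84%). All 16 genes were among those called in both of these fits. On the deposited scale 10 were called, 8 of them among the 16, and the share of all genes called is not given here.

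**Figure D3:**
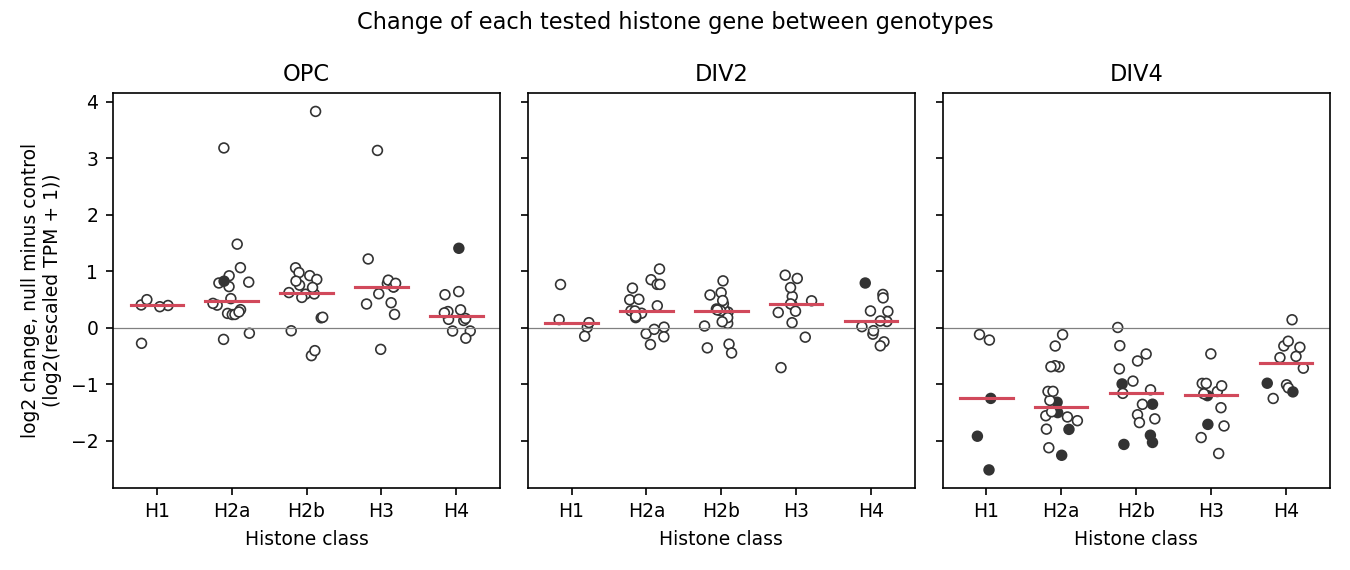
Log2 difference between null and control for each tested member (vertical axis) by class, in OPCs, at DIV2 and at DIV4, with filled points for called genes and a red line for the class median. At DIV4 62 of 64 points lie below 0 and 16 are filled.

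The 3 called linker histone genes at DIV4 were those with the larger falls from OPC to DIV2 in both genotypes. Hist1h1b was at 16.6, 17.9 and 35.8 rescaled TPM in control clones D7, D3 and E8 and at 1.23, 3.93 and 5.03 in null clones 3F, D6 and 7F (−2.51, SE 0.58, limma adjusted p = 0.022). It had the largest difference of the called members. Hist1h1a was at 24.5, 38.1 and 48.9 against 5.26, 8.38 and 14.8 (−1.92, SE 0.48, adjusted p = 0.0306). Hist1h1d, the gene for H1.3, was at 12.3, 16.3 and 18.3 against 4.32, 6.87 and 6.96 (−1.25, SE 0.27, adjusted p = 0.014). These 3 genes share under 4% of their words with other transcripts. Hist1h1e and Hist1h1c, the abundant H1 genes, were at 100.2 to 162 and 77.6 to 101 in control and at 97.2 to 129 and 61.6 to 114 in null, and their groups overlapped (−0.22 and −0.12, adjusted p = 0.504 and 0.814).

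Core histone genes were lower in null in each class. Hist1h2ah, an H2A gene, was at 5.35, 7.57 and 13.9 in control and at 0.198, 0.637 and 2.82 in null at DIV4 (−2.25, SE 0.57, limma adjusted p = 0.0324). Hist1h2bp, an H2B gene, was at 12.9, 8.56 and 17.3 against 1.16, 3.48 and 2.46 (−2.06, SE 0.47, adjusted p = 0.021). Neither pair of groups overlapped. The divergent genes Hist1h2ae and Hist1h2bg, which share the promoter shown, were at 6.44, 7.18 and 8.39 against 1.09, 1.33 and 1.80 and at 36.1, 30.6 and 46.7 against 15.8, 18.2 and 16.7. Both pairs of groups were apart, and only Hist1h2ae was called (−1.80, SE 0.36, adjusted p = 0.00976, against −1.10 for Hist1h2bg, SE 0.34, adjusted p = 0.0744). Of the H3 genes, Hist1h3a and Hist1h3e were called, at −1.71 and −1.20. Of the H4 genes, Hist1h4i was at 79.7, 68.6 and 84.4 against 35.9, 42.4 and 38.1 (−0.98, SE 0.18, adjusted p = 0.0064), the smallest adjusted p of any member at DIV4. Hist1h4n was the other H4 call, at −1.13. Called genes other than Hist1h1b, Hist1h2ah and Hist1h2bp were picked for naming once their values were known. Hist1h4d, the most abundant, overlapped between genotypes at 108 to 231 and 115 to 157.

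Between DIV2 and DIV4 the histone sums were higher at the later stage in the control clones. In control, the sum of all members at DIV4 was 1.77, 1.74 and 2.71 times that at DIV2 in D7, D3 and E8. In null it was 0.924, 0.933 and 1.25 times in 3F, D6 and 7F. For H3 the control ratios were 2.20, 2.44 and 5.21 and the null ratios 0.737, 0.766 and 1.25. For H4 they were 1.64, 1.67 and 2.73 and 1.18, 1.04 and 1.49. The ranges of these ratios did not overlap between genotypes for H3, H4 or the total, nor for H2a and H2b. For H1 they overlapped, at 1.53, 2.13 and 2.07 in control and 1.04, 1.45 and 1.55 in null, and H1 was higher at DIV4 in every null clone too. Of 64 members 56 were higher at DIV4 than at DIV2 in all 3 control clones at once, against 17.7% of all genes. In 15 members (23.4%) all 3 control clones were higher at DIV4 and all 3 null clones lower, against 2.34% of all genes, and 8 of these 15 were H2b genes.

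Few of these changes passed the test. From DIV2 to DIV4 in control, Hist1h1d (1.57, SE 0.27, limma adjusted p = 0.0266) and Hist1h4j (1.55, SE 0.28, adjusted p = 0.038) were called higher and 0 members lower, where 0.169% of all genes were called higher and 0.0845% lower. Hist1h1d went from 4.57, 5.74 and 3.59 to 12.3, 16.3 and 18.3 rescaled TPM in D7, D3 and E8. Hist1h4j, an H4 gene, went from 3.59, 3.56 and 1.94 to 8.32, 9.70 and 14.5. An unadjusted p under 0.05 in this direction was found for 43 members and for 5.12% of all genes. In 53 members every DIV4 library lay above every DIV2 library, against 6.88% of all genes. Neither gene was called on the deposited scale, without the filter, or without control E8 or any 1 null clone. With only DIV2 and DIV4 libraries 12 members were called higher (0.272% of all genes), 26 without the D3 OPC library (0.704%), 16 without control D7 and 14 without control D3. No share of all genes is given for the fits without control D7 or control D3. In null, 0 members were called by limma in either direction (1.75% of all genes were higher and 1.28% lower), with an unadjusted p under 0.05 for 3 higher and 3 lower (8.61% and 9.65% of all genes).

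The difference between genotypes in the DIV2 to DIV4 change was tested directly and passed for 0 members and for 0 of all 10656 genes. An unadjusted p under 0.05 was found for 33 members, all with a lower change in null, against 2.63% of all genes in that direction. Hist1h2ae had the smallest adjusted p of the members (−2.56, SE 0.51, limma adjusted p = 0.207). It went from 1.85, 2.10 and 2.36 to 6.44, 7.18 and 8.39 in control and from 4.10, 5.34 and 3.53 to 1.09, 1.33 and 1.80 in null. Each control clone was higher at DIV4 than at DIV2 and each null clone lower. Without control D3, 9 members passed, and without the D3 OPC library 6. With only the DIV2 and DIV4 libraries 1 passed. The share of all genes passing in these fits is not given here, so whether calls also rose over all genes cannot be told.

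The composition of histone RNA differed between genotypes most clearly at DIV4. Shares of the member sum do not depend on library scaling. At DIV4 H2b was 22.3% ± 3.37 in control and 18.01% ± 0.349 in null (SD, n = 3), and H4 was 39.6% ± 1.57 and 45.3% ± 2.70. H1 was 14.3% ± 2.04 and 18.8% ± 0.987. H2a was 12.3% ± 1.13 and 9.71% ± 0.690, and H3 was 11.6% ± 1.91 and 8.09% ± 1.15. For all 5 classes at DIV4 the 3 null clones lay outside the range of the 3 control clones, also with the 4 Hist2 genes near 0 in E8 OPCs left out of every library. In OPCs H2b was 22.8% ± 4.05 in control and 27.0% ± 0.463 in null, H4 37.8% ± 3.55 and 33.4% ± 0.941, H3 12.6% ± 2.17 and 14.8% ± 0.368, and H1 12.5% ± 4.46 and 9.57% ± 0.225. The clones of the groups did not overlap in these 4 classes. Without the 4 Hist2 genes, a choice made after the data were seen, only H3 stayed apart in OPCs. H2b was then 16.7% to 24.5% in control and 23.8% to 24.1% in null, and H4 36.2% to 45.4% and 36.3% to 38.7%. At DIV2 H2b, H4 and H1 overlapped between genotypes. H3 was 7.68% ± 0.736 in control and 9.29% ± 0.887 in null, and H2a 11.9% ± 0.415 and 13.1% ± 0.309, both without overlap. No test was made of these shares.

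**Figure D4:**
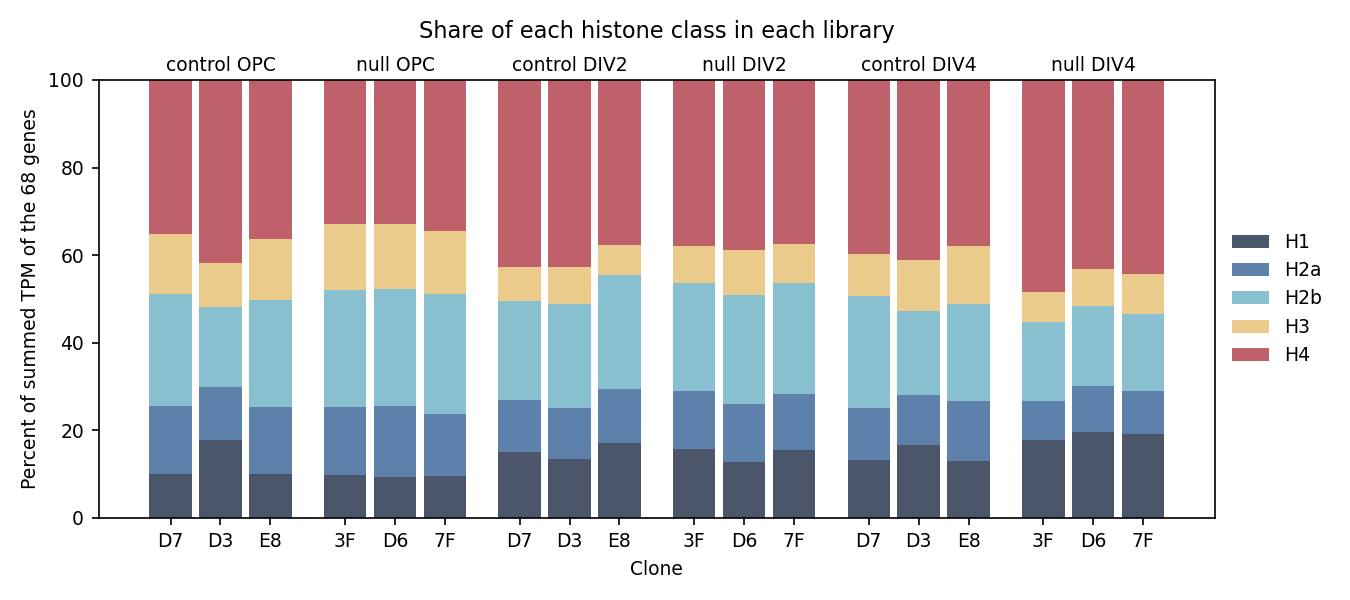
Percent of the summed TPM of the 68 genes taken by each class (stacked, 0 to 100) in each of the 18 libraries, grouped by genotype and stage. H4 is the largest class throughout, at 32.8% to 48.4%, and highest in the 3 null DIV4 libraries.

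Of 11 histone variants encoded outside the clusters, 7 fell from OPC to DIV2 in each genotype and 0 rose, where 18.2% of all genes fell in control and 15.3% in null. The most marked were Cenpa, the centromeric H3 (−2.67 in control and −3.44 in null), and H2afx, the variant phosphorylated at DNA breaks (−2.84 and −2.91). H2afz, encoding H2A.Z, changed by −1.90 and −2.32. The 11 summed to 1054 to 1567 rescaled TPM in OPCs and 927 to 1326 at DIV4. Between genotypes H2afy2, encoding macroH2A2, was lower in null in OPCs (−0.75, SE 0.13, limma adjusted p = 0.00315) and at DIV2 (−0.75, SE 0.13, adjusted p = 0.0048). H3f3b, encoding H3.3, was higher in null OPCs (0.63, SE 0.19, limma adjusted p = 0.0414). H3f3a, which also encodes H3.3, was not called there. It was at 462, 874 and 361 rescaled TPM in control OPC clones D7, D3 and E8 and at 368, 527 and 551 in null OPC clones 3F, D6 and 7F. At DIV4 none of the 11 was called, and their median difference was −0.37.

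Of 15 tested genes for histone transcription and mRNA 3′ end processing, 4 fell from OPC to DIV2 in each genotype, against 18.2% of all genes in control and 15.3% in null, so this count is not far from the background. They were Slbp (−1.17 in control and −1.24 in null), Casp8ap2, Eri1, which trims the stem-loop end, and Coil. Sympk, a scaffold of the cleavage complex, rose in both (0.48 and 0.92), and Upf1, a helicase of histone mRNA decay, rose in null (0.64). In OPCs Sympk and Upf1 were lower in null (−0.64 and −0.91). At DIV2 and DIV4 none of the 15 was called between genotypes. Of 11 histone chaperones, 8 fell in control and 7 in null from OPC to DIV2, against the same 18.2% and 15.3% of all genes. Chaf1b, of the CAF-1 complex that loads histones at replication forks, changed by −2.28 in both, and Asf1b, its partner, by −1.89 and −2.34. Daxx, a chaperone of H3.3, was lower in null OPCs (−0.63). At DIV4 none was called.

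The S phase genes fell with the histone genes, 17 of 19 tested in control and 19 of 19 in null from OPC to DIV2, against 18.2% and 15.3% of all genes. At DIV4 they summed to 74.3 to 101 rescaled TPM in control and 63.9 to 73.0 in null, without overlap. Pcna was the largest part of these sums, at 43.0, 28.6 and 35.4 in D7, D3 and E8 and 24.7, 28.0 and 23.5 in 3F, D6 and 7F. Mcm7 overlapped, at 9.16, 12.8 and 10.6 against 16.2, 11.7 and 15.5. The mean log2 level per gene overlapped too, at 1.66, 1.57 and 1.99 against 1.30, 1.59 and 1.51. The median difference per gene was −0.28 with 0 called by limma, and the median for the 64 histone genes was −1.13. The added 1 of this log2 scale shrinks the differences of genes at low levels. Several S phase genes, such as Cdc6, Tk1 and Gins2, were below 1 rescaled TPM in every DIV4 library. These medians are therefore not directly comparable. Between DIV2 and DIV4 the S phase medians were 0.35 in control and −0.21 in null. At DIV4 the sum of the precursor markers was higher in control D3 and E8 than in each null clone, and lower in D7 than in each. Pdgfra was at 7.02, 48.1 and 49.7 in D7, D3 and E8 and at 7.35, 18.9 and 9.64 in 3F, D6 and 7F. Cspg4 did not follow the sum, at 1.57, 3.92 and 6.11 against 4.40, 5.70 and 3.76. No precursor, oligodendrocyte or astrocyte marker was called between genotypes at DIV4. P2ry12, the 1 microglial marker tested, was higher in null (1.13, limma adjusted p = 0.00872). D7 had the lowest histone sum of the control clones at DIV4 and lay above the null clones. Without D7 the log2 ratio of the sums was −0.96. In that fit 24 members were called, and the share of all genes called is not given here. The part of S phase and of the marker differences in the histone levels was not tested.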

How the data were processed

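Total RNA libraries of 18 clonal cultures were analysed from 1 table of 93666 transcripts. Its values are TPM as deposited by the authors. The submitters' processing notes name STAR, Picard and mm10 without their roles. The quantifier, annotation and strand setting are not given in the sources used here, and read depth is unknown. Deposited TPM were summed by gene name, and 27 names had been turned into dates by spreadsheet software (150 transcripts). The length column, unit not stated, was used as deposited. Factors were medians of ratios over 12320 genes.

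Tests used limma 3.58.1 with a mean-variance trend (R 4.3.3) on log2(rescaled TPM + 1), a fit of all 18 libraries with 6 group means and Benjamini-Hochberg adjustment. Genes were kept at a mean deposited TPM of 1 or more. Contrasts set null against control within a stage, consecutive stages within a genotype, and the interactions. Class sums and shares got no test. The scripts were tested on simulated data. Tables were made with Python 3.11.15, numpy 2.4.6 and pandas 2.3.3, and figures with matplotlib 3.10.9. Sequences came from GENCODE M21 (GRCm38; 90499 transcripts matched) and RefSeq promoters (GRCm38.p6). Of the member transcripts 36 had another length in M21 and 5 another name. All value columns matched a sample.

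The members and lists were chosen with earlier results of these data known. Genes named by rule were the 2 most abundant of each class, the 3 largest called rises and falls without overlap in each genotype, DIV2 to DIV4 and interaction comparison, and the called genes of each list (the 2 largest where over 4). Alternatives were deposited TPM, protein-coding scaling, a pseudocount of 0.1, no filter or a mean of 5, the clone as a block, and each clone left out. The same clone was sampled at each stage. Deviations from group means correlated between stages of a clone with a mean of 0.285 (0.0293 to 0.654, 18 pairs), and between different clones with a mean of −0.140 (−0.580 to 0.331, 36 pairs). The deviations of the 3 clones of a group sum to 0. The second mean therefore follows largely from the first and is no separate result.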

Additional observations from a re-analysis of the deposited data

How the results depend on the processing

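Counts are members called of 64. Shares of all genes called under these alternatives are given only where stated above. On deposited TPM they were 60 between genotypes in OPCs, 0 at DIV2, 10 at DIV4, 37 from OPC to DIV2 in control, 0 from DIV2 to DIV4 in control and 57 for the interaction from OPC to DIV2. Protein-coding scaling gave 17 in OPCs and 0 at DIV2. No filter gave 0 at DIV2, 9 at DIV4 and 0 from DIV2 to DIV4 in control. On deposited TPM the log2 ratio of the sums, null over control, was 2.26 in OPCs and −1.15 at DIV4 for all members. It was 2.01, −0.15 and −0.74 for H1 in OPCs, at DIV2 and at DIV4, 2.29 for H2a, 2.42 for H2b and 2.45 for H3 in OPCs, −0.043 for H2b at DIV2, and 2.12 and −0.95 for H4 in OPCs and at DIV4. In OPCs Hist1h1e, Hist1h2ao and Hist1h4h changed sign on that scale, to 1.85, 1.89 and 2.07. The median of all genes moved too on that scale; any further cause was not tested. With 1 clone left out, counts ran from 1 to 21 in OPCs, 0 to 1 at DIV2, 0 to 33 at DIV4, 0 to 16 and 0 to 3 from DIV2 to DIV4 in control and null, and 0 to 9 for that interaction. Other fits were chosen after seeing the data. Without control D3 in OPCs, counts were 40 at DIV4, 26 from DIV2 to DIV4 in control and 6 for that interaction, and without control E8 in OPCs 1 in OPCs. With DIV2 and DIV4 libraries alone, counts were 2 at DIV2, 36 at DIV4, 12 and 2 from DIV2 to DIV4 in control and null, and 1 for the interaction. With the clone as replicate block, pairing the stages, 15 members in place of 16 were called at DIV4, and every other count stayed as it was. Depth is unknown, so the limit for low genes cannot be given.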
